A study of Mus musculus with 8 samples.

Results

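The genes described here encode the machinery that copies DNA in S phase, with the enzymes that supply nucleotides and the regulators that commit a cell to replication. They were chosen by gene symbol from a list of 54 genes, and 44 of the 54 had a probe among the 9416 named genes that were measured. A gene with several probes was represented by its brightest one, averaged over the 8 arrays. The other 10 genes (Orc1, Gmnn, Gins1, Gins2, Pola1, Pole2, Rfc3, Dtl, Slbp and Ccne2) were not analysed here. A probe was kept when it was detected on at least 2 arrays, which means a signal above the array's negative controls at a detection p under 0.05. Of the 44 genes, 33 met this on the FA arrays alone, and 11 met it only because of the vehicle arrays.

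RNA came from the epidermis, the outer layer of skin, of wild-type B6129 mice of both sexes. FA is fluocinolone acetonide, a synthetic glucocorticoid used on skin. The FA groups were females and males given 2 µg of FA in 200 µl of acetone on the shaved back, and the vehicle groups were females and males given acetone alone. All mice were 7 to 8 weeks old, were treated a single time 3 days after shaving, and gave skin 24 h later. The design names 2 animals per condition, so 8 Illumina bead arrays make 4 groups of 2 and each array was taken as a separate animal.

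Replication begins in G1 phase, when the origin recognition complex, Cdc6 and Cdt1 load the ring-shaped MCM helicase (Mcm2 to Mcm7) onto origins. At the start of S phase, Cdc45 and the GINS complex join the helicase, Mcm10 helps it open, and the polymerases, the PCNA clamp and the RPA single-strand binding complex form the fork. D-type cyclins act earlier: with their kinases they inactivate the retinoblastoma protein and release E2F factors, which switch on many of these genes. In epidermis, cell division takes place mainly in the basal layer and in hair follicles, and glucocorticoids applied to skin are known to restrain it.

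Because E2F factors are known to drive many of these genes, their promoters were searched for the 8-base E2F words TTTCGCGC, TTTGGCGC, TTTCCCGC and TTTGCCGC on both strands. The promoters were those of RefSeq on build GRCm38.p6, from 250 bases before to 50 after each gene's start. At least 1 word stood in 15 of the 42 listed genes that matched (35.7%), in 10 of 36 measured ones (27.8%), in 4.39% of 7655 measured genes of any kind and in 2.60% of all 27025 genes in the table. Genes that fell with FA held a word in 6 of 23 promoters (26.1%), and measured genes that did not fall held one in 4 of 13 (30.8%). The CCAAT box (CCAAT or ATTGG) stood in 58.3% of the measured replication genes and in 42.9% of all measured genes. These shares are descriptions, and a word in a promoter is not a site that was shown to be bound.

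The windows below were chosen to show the words upstream of the start in genes that fell (Mcm5, Mcm6), in the gene that rose (Cdc6) and in genes that did not pass the test (Mcm7, Gins3). Capitals mark the E2F words. Adjacent words overlap in Mcm5 and in the first run of Mcm6, and each such overlap is printed as a single run of capitals.
Mcm5, chr8:75109326-75109397, plus strand: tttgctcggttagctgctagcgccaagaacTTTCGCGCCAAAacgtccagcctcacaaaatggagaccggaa
Mcm6, chr1:128359715-128359845, minus strand: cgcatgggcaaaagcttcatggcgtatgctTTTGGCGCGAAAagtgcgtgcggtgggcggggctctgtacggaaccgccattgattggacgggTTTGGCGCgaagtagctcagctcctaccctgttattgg
Cdc6, chr11:98907983-98908050, plus strand: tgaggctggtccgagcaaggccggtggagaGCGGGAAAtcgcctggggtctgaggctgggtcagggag
Mcm7, chr5:138172011-138172078, minus strand: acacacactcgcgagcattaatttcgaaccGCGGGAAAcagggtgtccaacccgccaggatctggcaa
Gins3, chr8:95633488-95633555, plus strand: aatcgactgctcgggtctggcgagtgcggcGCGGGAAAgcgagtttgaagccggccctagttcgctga
The first word begins 153 bases before the start in Mcm5, 110 in Mcm6, 138 in Cdc6, 165 in Mcm7 and 41 in Gins3. The word GCGGGAAA (TTTCCCGC read on the other strand) is the same in Cdc6, Mcm7 and Gins3, whose responses to FA are described below.

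The share of probes detected was 44.5% to 46.9% on 7 arrays, and 32.4% on replicate 2 of the FA females. That array also had a median unprocessed signal of 191.2, against 99.5 to 109.3 on the others, and correlated with its partner at 0.9586, while the partners of the other groups correlated at 0.9863 to 0.9896. For the effect averaged over both sexes, calls that changed without it are given with and without it. Effects averaged over both sexes that moved by over 1.5 times are given likewise. The treatment was visible in known glucocorticoid-induced genes, 9 of 9 of which rose. Fkbp5, which encodes a co-chaperone of steroid receptors, rose by 4.01 ± 0.16 on the log2 scale (adjusted p = 3.53e-05). All 7 basal keratinocyte markers and all 7 measured suprabasal ones were detected on every array, which bears on the labelled tissue.

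Most replication genes were lower in FA-treated epidermis. Averaged over both sexes, 30 of the 44 passed as lower, when 11.4% of all 9416 genes did, and 1 passed as higher (Cdc6), when 9.40% of all genes did. The threshold was an adjusted p of 0.05 in the limma fit, with Benjamini-Hochberg adjustment across all genes. The median effect of the 44 genes was -1.11 on the log2 scale, against -0.02 for all genes, and 41 of the 44 effects were negative. Of the 30 that fell, 22 fell at least 2-fold by the fitted effect, and in all 30 the 4 FA values lay below the 4 vehicle values. That order held for 33 of the 44 replication genes and for 14.6% of all genes. Both the 2-fold count and the order include 7 genes that passed the detection filter only through the vehicle arrays. These are Mcm2, Mcm3, Mcm10, Pole, Timeless, Tk1 and E2f1, and the filter itself favours a lower FA value in them. Mcm3 is counted by its fitted effect, while its lower bound is 1.40-fold. In whole epidermis, fewer cells of a type and less RNA per cell cannot be told apart.

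Passing the detection filter through the vehicle arrays alone requires a gene to be brighter there, so the counts are also given for genes that did not need it. Among the 33 genes detected on at least 2 FA arrays, 23 fell, as did 11.1% of the 8446 such genes of any kind. Of the 22 detected on all 8 arrays 14 fell (63.6%), as did 11.5% of all 5617 such genes. When only probes detected on all 8 arrays were used, 23 replication genes could be tested. Their median effect was -0.88, against 0.04 for all 5648 such genes. Without replicate 2 of the FA females, 35 of the 44 fell, as did 11.8% of all genes, and Cdc6 alone rose, beside 1092 of all 9416 genes.

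**Figure D1:**
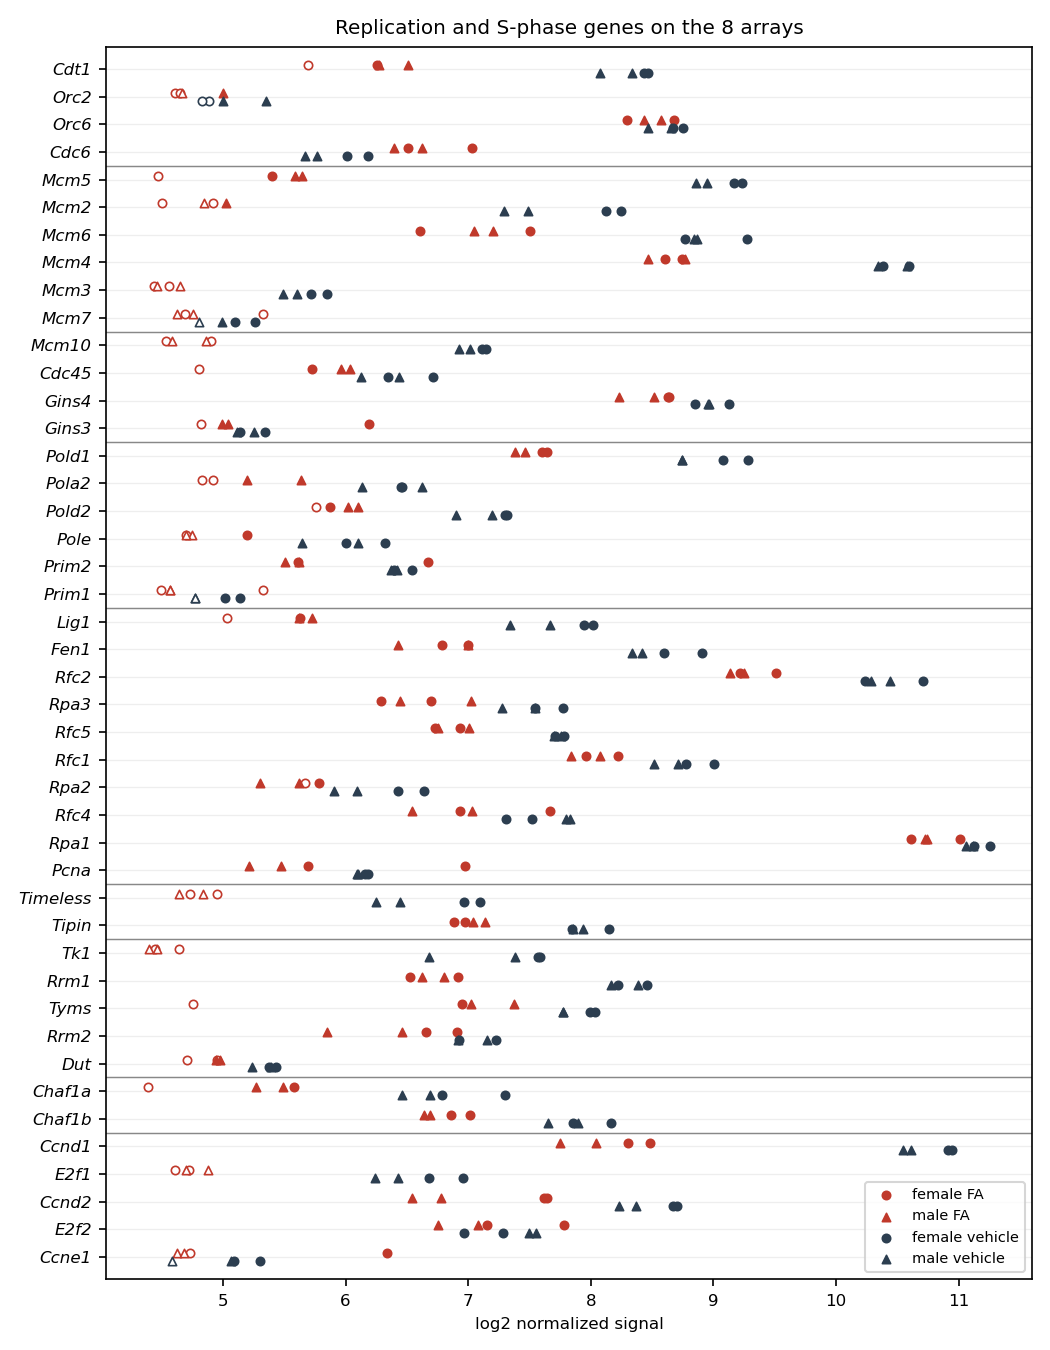
Log2 normalized signal of the 44 genes on each of the 8 arrays, ordered by role with lines between roles (FA red, vehicle dark blue, females circles, males triangles, open symbols not above background). In 33 genes all 4 FA values lie left of all 4 vehicle values, Cdc6 lies the other way, and levels of different genes are not comparable because each has its own probe.

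Origin licensing was split: of 4 measured genes, Cdt1 fell, Cdc6 rose, and Orc2 and Orc6 did not pass. Log2 signals of Cdt1, the loader of the MCM ring, were 6.25 and 5.69 in FA females and 6.51 and 6.27 in FA males, against 8.47 and 8.43 in vehicle females and 8.08 and 8.33 in vehicle males. The groups were far apart, and Cdt1 fell by 2.14 ± 0.16 (log2, SE, adjusted p = 0.000213), a 4.42-fold difference with 3 of 4 FA arrays above background. Cdc6, the ATPase that works with the origin recognition complex to load the ring, went the other way. Its log2 signals were 7.03 and 6.51 in FA females and 6.39 and 6.62 in FA males, against 6.01 and 6.18 in vehicle females and 5.67 and 5.77 in vehicle males. Every FA value exceeded every vehicle value, and Cdc6 rose by 0.73 ± 0.15 (adjusted p = 0.0155).

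The rise of Cdc6 rests on a single well-detected probe. Its other probe was detected on 2 arrays and had a difference of 0.30 ± 0.14. The call was also lost without replicate 1 of the vehicle females, replicate 2 of the FA males or either vehicle male. The fitted rise stayed between 0.60 and 0.86 over the 8 leave-one-out fits. Orc6, a subunit of the origin recognition complex, had 8.68 and 8.29 in FA females and 8.57 and 8.44 in FA males, against 8.75 and 8.67 in vehicle females and 8.66 and 8.46 in vehicle males (log2 signal). The groups overlapped and the difference was -0.14 ± 0.13, and -0.05 without FA female replicate 2. Orc2, another subunit, differed by -0.29 ± 0.14 (adjusted p = 0.184). It was above background on 1 of 4 FA arrays and 2 of 4 vehicle arrays, so its response could not be measured.

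Of the 6 subunits of the MCM helicase 5 fell, and Mcm7 did not pass. The median fitted effect was -1.84, with 3 of the 6 above background on at most 1 FA array. Log2 signals of Mcm5 were 5.40 and 4.47 in FA females and 5.64 and 5.59 in FA males, against 9.17 and 9.23 in vehicle females and 8.86 and 8.95 in vehicle males. One FA value, that of female replicate 2, was not above background. Mcm5 fell by 3.77 ± 0.20 (adjusted p = 6.76e-05), a 13.7-fold difference, and fell by 3.54 without that array. Log2 signals of Mcm2 were 4.92 and 4.50 in FA females and 4.84 and 5.02 in FA males, against 8.13 and 8.24 in vehicle females and 7.29 and 7.48 in vehicle males. Only 1 of the 4 FA arrays was above background, so the size of the fall, 2.96 ± 0.14 (adjusted p = 3.53e-05), is uncertain. In females, where neither FA array detected it, Mcm2 was at least 6.73-fold lower with FA, computed against the lowest detected signal of those arrays.

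Mcm4 and Mcm6 were detected in every mouse, with Mcm6 on FA female replicate 2 the least certain at a detection p of 0.0113. Log2 signals of Mcm4 were 8.60 and 8.74 in FA females and 8.76 and 8.46 in FA males, against 10.59 and 10.38 in vehicle females and 10.35 and 10.58 in vehicle males. Mcm4 fell by 1.83 ± 0.13 (adjusted p = 0.000193), a 3.56-fold difference, with effects of -1.85 ± 0.19 in males and -1.82 ± 0.19 in females. Log2 signals of Mcm6 were 7.50 and 6.61 in FA females and 7.20 and 7.05 in FA males, against 9.27 and 8.77 in vehicle females and 8.84 and 8.86 in vehicle males. The 2 FA females differed from each other more than any other pair, and Mcm6 fell by 1.85 ± 0.22 (adjusted p = 0.00147). Its other 2 probes had falls of similar size, -2.12 ± 0.17 and -2.21 ± 0.30.

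Mcm3 was near the detection limit. Its log2 signals were 4.44 and 4.56 in FA females and 4.65 and 4.46 in FA males, none above background, against 5.72 and 5.85 in vehicle females and 5.60 and 5.49 in vehicle males. Mcm3 was at least 1.40-fold lower with FA (adjusted p = 0.000756), and this call was lost when values under the detection limit were set to it. Mcm7 differed by -0.19 ± 0.16 (adjusted p = 0.454) and was not above background on any FA array, so its response could not be measured; the difference was -0.35 (adjusted p = 0.0965) without FA female replicate 2.

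Helicase activation followed with 3 of 4 measured genes lower. Log2 signals of Mcm10, which helps the assembled helicase open the origin, were 4.90 and 4.53 in FA females and 4.86 and 4.58 in FA males, against 7.14 and 7.12 in vehicle females and 6.93 and 7.01 in vehicle males. No FA array was above background and every vehicle array was, and Mcm10 was at least 3.66-fold lower with FA (adjusted p = 9.14e-05). Cdc45 and the GINS subunit Gins4 were weaker cases, with falls of 0.77 ± 0.22 (adjusted p = 0.0450) and 0.47 ± 0.13 (adjusted p = 0.0373). The Cdc45 call was lost in 9 of 22 alternatives and the Gins4 call in 8 of 23, in each without any single 1 of the 6 arrays other than the FA females; with 1 array left out the effects ran from -1.004 to -0.54 and from -0.54 to -0.40. Gins3 differed by 0.05 ± 0.28, with 6.19 on replicate 2 of the FA females and 4.82 on replicate 1, and by -0.29 (adjusted p = 0.151) without replicate 2 and 0.39 (adjusted p = 0.0450) without replicate 1.

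Among polymerases and primase, 4 of 6 measured genes fell, all polymerase subunits, and neither primase subunit passed. Log2 signals of Pold1, the catalytic subunit of polymerase delta, were 7.60 and 7.64 in FA females and 7.46 and 7.38 in FA males, against 9.08 and 9.28 in vehicle females and 8.74 and 8.74 in vehicle males. The FA mice clustered closely, and Pold1 fell by 1.44 ± 0.11 (adjusted p = 0.000242), a 2.72-fold difference. Its partner subunit Pold2 had 5.87 and 5.76 in FA females and 6.02 and 6.10 in FA males, against 7.31 and 7.30 in vehicle females and 6.90 and 7.19 in vehicle males (log2 signal). Pold2 fell by 1.24 ± 0.12 (adjusted p = 0.000621), and 3 of 4 FA arrays were above background.

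Pola2, the regulatory subunit of polymerase alpha, and Pole, the catalytic subunit of polymerase epsilon, came close to background with FA. Log2 signals of Pola2 were 4.83 and 4.92 in FA females and 5.64 and 5.20 in FA males, against 6.45 and 6.46 in vehicle females and 6.13 and 6.62 in vehicle males. Neither FA female was above background and both FA males were, and Pola2 fell by 1.27 ± 0.16 (adjusted p = 0.00194). Log2 signals of Pole were 5.20 and 4.70 in FA females and 4.75 and 4.70 in FA males, against 6.003 and 6.32 in vehicle females and 6.10 and 5.64 in vehicle males. Only FA female replicate 1 was above background, and Pole fell by 1.18 ± 0.17 (adjusted p = 0.00394). Prim2, the large primase subunit, differed by -0.58 ± 0.22 (adjusted p = 0.110), and by -0.85 (adjusted p = 0.00169) without replicate 2 of the FA females. Prim1, the catalytic primase subunit, was not above background on any FA array, and differed by -0.19 ± 0.19 with all arrays and by -0.40 (adjusted p = 0.0528) without that replicate.

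Of 10 measured genes of the clamp, its loader, the RPA complex and flap processing, 7 fell, with a median effect of -0.80. The largest falls were in the enzymes that finish the lagging strand. Log2 signals of Lig1, the ligase that seals Okazaki fragments, were 5.63 and 5.03 in FA females and 5.72 and 5.62 in FA males, against 7.95 and 8.02 in vehicle females and 7.34 and 7.67 in vehicle males. The groups did not approach each other, and Lig1 fell by 2.24 ± 0.16 (adjusted p = 0.000205), a 4.73-fold difference with 3 of 4 FA arrays above background. Log2 signals of Fen1, the nuclease that trims the flaps before ligation, were 6.997 and 6.78 in FA females and 6.996 and 6.42 in FA males, against 8.60 and 8.90 in vehicle females and 8.42 and 8.34 in vehicle males. Fen1 was above background in every mouse and fell by 1.77 ± 0.16 (adjusted p = 0.000531), a 3.40-fold difference.

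Of the clamp loader, 3 of 4 measured subunits fell, and of the RPA complex 2 of 3. Rfc2, Rfc5 and Rfc1, subunits of the loader, fell by 1.14 ± 0.15 (adjusted p = 0.00242), 0.88 ± 0.12 (adjusted p = 0.00286) and 0.73 ± 0.13 (adjusted p = 0.01). Rpa3 and Rpa2, the small subunits of RPA, fell by 0.92 ± 0.18 (adjusted p = 0.0121) and 0.67 ± 0.13 (adjusted p = 0.0123). The Rpa3 call was lost without vehicle replicate 1 of the males (adjusted p = 0.0537) or of the females (adjusted p = 0.0566), and that of Rpa2 without vehicle replicate 1 of the males (adjusted p = 0.0540) or replicate 2 of the females (adjusted p = 0.0529). Rpa1, the large subunit, differed by -0.37 ± 0.13 (adjusted p = 0.0858) and Rfc4 by -0.57 ± 0.20 (adjusted p = 0.0781). Both passed without replicate 2 of the FA females, at -0.47 (adjusted p = 0.0281) and -0.75 (adjusted p = 0.00873).

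Pcna, the sliding clamp itself and a common marker of proliferating cells, did not pass. Its log2 signals were 5.69 and 6.97 in FA females and 5.47 and 5.21 in FA males, against 6.18 and 6.15 in vehicle females and 6.10 and 6.10 in vehicle males. The FA males and FA female replicate 1 lay below all vehicle values, and FA female replicate 2 lay above them. The difference was -0.30 ± 0.26 (adjusted p = 0.460) on all arrays and -0.62 (adjusted p = 0.0105) without that replicate, so 1 array decided the call.

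Timeless and Tipin form the complex that protects the moving fork and links helicase to polymerase, and both fell. Log2 signals of Timeless were 4.95 and 4.73 in FA females and 4.84 and 4.64 in FA males, against 7.10 and 6.97 in vehicle females and 6.44 and 6.25 in vehicle males. No FA array was above background, and Timeless was at least 2.85-fold lower with FA (adjusted p = 0.000133). Tipin fell by 0.94 ± 0.12 (adjusted p = 0.00216). Its second probe, detected on 5 arrays, gave 0.06 ± 0.23, so the probes of Tipin disagreed.

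Of the 5 nucleotide-supply genes, 3 fell. Log2 signals of Tk1, the thymidine salvage kinase, were 4.64 and 4.45 in FA females and 4.46 and 4.40 in FA males, against 7.57 and 7.58 in vehicle females and 6.68 and 7.38 in vehicle males. No FA array was above background, and Tk1 was at least 4.36-fold lower with FA (adjusted p = 0.000113). A dimmer Tk1 probe, detected on 6 arrays, had a difference of -0.19 ± 0.33, so the call rests on the brighter probe. Log2 signals of Rrm1, the large subunit of ribonucleotide reductase, were 6.53 and 6.92 in FA females and 6.80 and 6.63 in FA males, against 8.46 and 8.22 in vehicle females and 8.38 and 8.16 in vehicle males. Rrm1 was detected in every mouse and fell by 1.59 ± 0.14 (adjusted p = 0.000455), a 3.01-fold difference.

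Rrm2, the small subunit of ribonucleotide reductase, differed by -0.59 ± 0.17 and missed the threshold (adjusted p = 0.0525), which it passed in 12 of 23 alternatives. Tyms, thymidylate synthase, had 6.95 and 4.75 in FA females and 7.37 and 7.02 in FA males, against 7.99 and 8.04 in vehicle females and 7.77 and 7.77 in vehicle males (log2 signal). All FA values lay below all vehicle values, yet the spread between the FA females left a difference of -1.37 ± 0.42 (adjusted p = 0.0586). Without FA female replicate 2, Tyms passed at -0.82 (adjusted p = 0.00309) and Rrm2 at -0.65 (adjusted p = 0.0301). Dut, which removes dUTP from the nucleotide pool, fell by 0.47 ± 0.12 (adjusted p = 0.0298) and lost its call in 11 of 22 alternatives, among them those without any single 1 of the arrays other than FA female replicate 1 (effects of -0.50 to -0.40).

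Chaf1a and Chaf1b, the large and middle subunits of the assembly factor that deposits histones behind the fork, both fell. Log2 signals of Chaf1a were 5.58 and 4.39 in FA females and 5.27 and 5.49 in FA males, against 6.79 and 7.30 in vehicle females and 6.46 and 6.69 in vehicle males. Chaf1a fell by 1.62 ± 0.27 (adjusted p = 0.00627), and fell by 1.33 without FA female replicate 2, which was the lowest value and not above background. Chaf1b fell by 1.09 ± 0.13 (adjusted p = 0.00150).

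The G1/S regulators were divided between the D-type cyclins and E2f1, which fell, and E2f2 and Ccne1, which did not pass. Log2 signals of Ccnd1 (cyclin D1) were 8.31 and 8.49 in FA females and 8.04 and 7.74 in FA males, against 10.91 and 10.95 in vehicle females and 10.55 and 10.61 in vehicle males. Ccnd1 was detected in every mouse and fell by 2.61 ± 0.12 (adjusted p = 3.53e-05), a 6.11-fold difference, and its other 2 probes had falls of 2.49 and 1.57. Log2 signals of Ccnd2 (cyclin D2) were 7.64 and 7.62 in FA females and 6.78 and 6.54 in FA males, against 8.67 and 8.70 in vehicle females and 8.23 and 8.37 in vehicle males. FA males were the lowest group, and Ccnd2 fell by 1.35 ± 0.11 (adjusted p = 0.000364).

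E2f1, an activating E2F factor, fell out of the detectable range. Its log2 signals were 4.72 and 4.61 in FA females and 4.88 and 4.70 in FA males, against 6.68 and 6.96 in vehicle females and 6.43 and 6.24 in vehicle males. E2f1 was at least 2.64-fold lower with FA (adjusted p = 0.000143). E2f2, another activating factor, had 7.16 and 7.78 in FA females and 7.08 and 6.75 in FA males, against 7.28 and 6.96 in vehicle females and 7.55 and 7.49 in vehicle males (log2 signal). Its groups overlapped, and the difference was -0.13 ± 0.18 (adjusted p = 0.637), and -0.29 (adjusted p = 0.206) without FA female replicate 2. Ccne1 (cyclin E1) differed by 0.08 ± 0.33, with 6.34 on FA female replicate 2 and no other FA array above background. Without FA female replicate 1 its difference was 0.49 (adjusted p = 0.0379), and without replicate 2 it was -0.32 (adjusted p = 0.185).

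**Figure D2:**
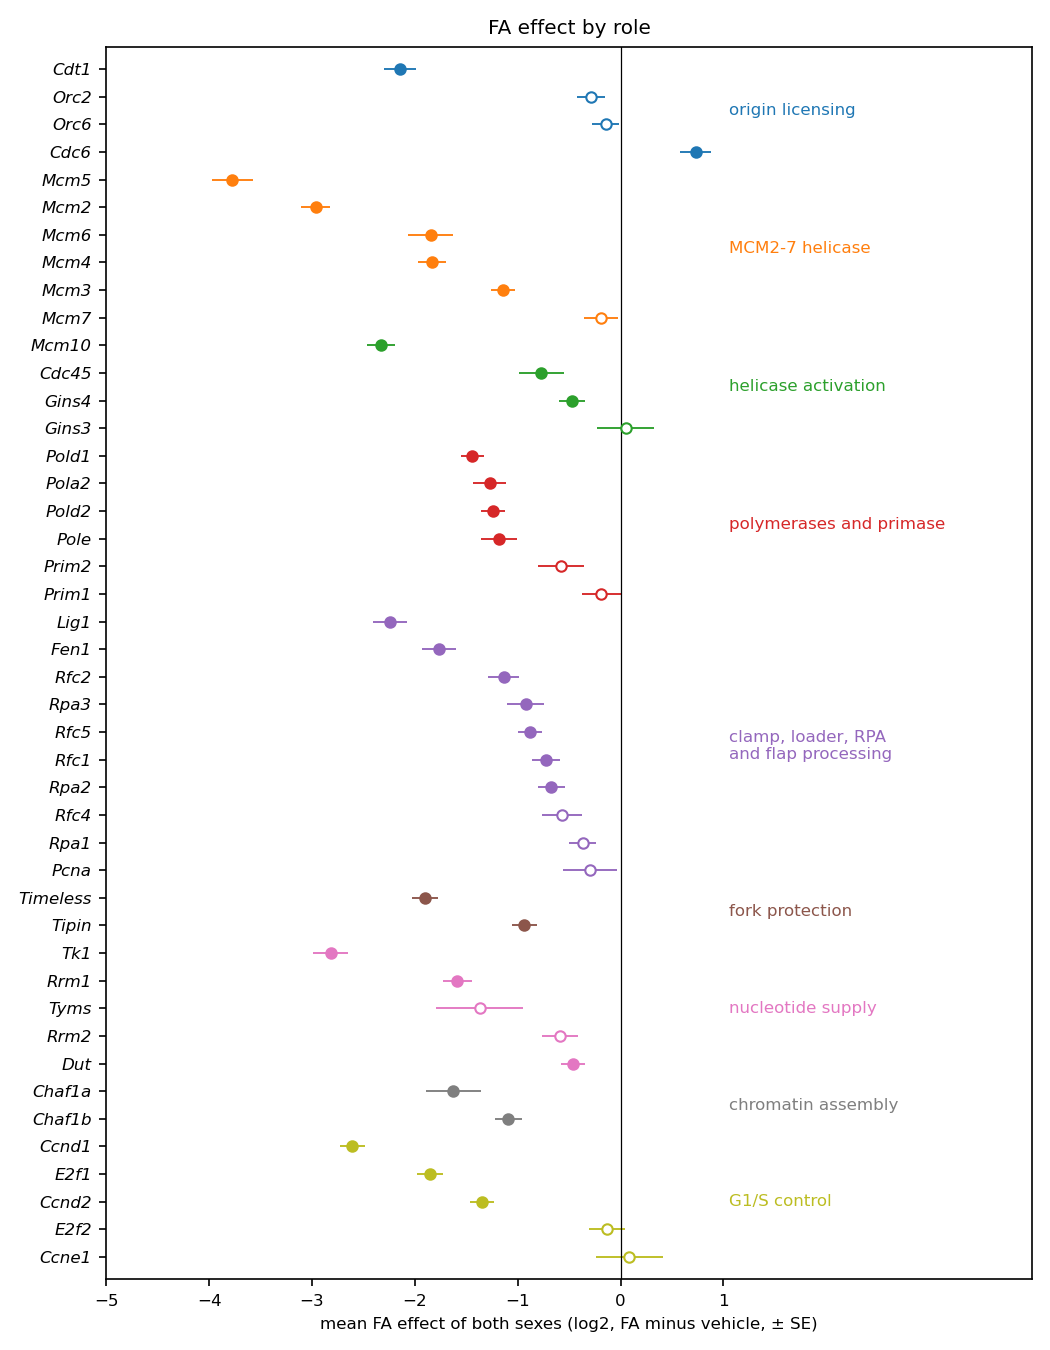
Mean FA effect of both sexes (log2, FA minus vehicle) with its standard error for the 44 genes, coloured by role. Filled points passed at an adjusted p under 0.05 and open points did not: 30 filled points lie left of 0, from Mcm5 at -3.77 to Dut at -0.47, and Cdc6 lies right of it at 0.73.

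For the 7 genes with no FA array above background (Tk1, Mcm10, Timeless, E2f1, Mcm3, Mcm7 and Prim1), the fitted effect rests on FA values that were not above background.

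Of the 12 genes with several probes, the probes agreed in size for some and disagreed for others. Averaged over both sexes, Mcm6, Rrm2, Prim2 and E2f2 had probes with similar effects. Within a sex the Prim2 probes differed, with -0.33 and -0.95 in females and -0.83 and -0.49 in males. The E2f2 probes gave 0.34 and -0.02 in females. The probes of Ccnd1 agreed in direction, with a smaller fall on the dimmest (-1.57 ± 0.17). Tk1, Lig1 and Tipin did not: the dimmer probe of Lig1, detected on 2 arrays, gave 0.12 ± 0.13 beside the -2.24 of the brighter one. The second probe of Tyms gave -0.46 ± 0.24.

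**Figure D3:**
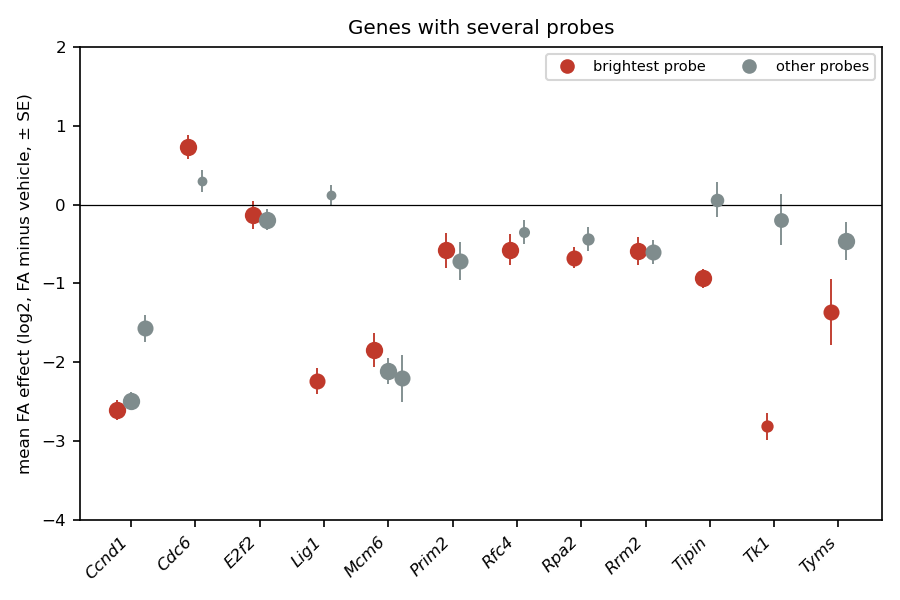
Mean FA effect (log2, FA minus vehicle, with standard error) of every probe of the 12 genes with more than 1 probe; red points are the brightest probe, grey points the others, and a larger point was detected on more arrays. The 3 probes of Ccnd1 and of Mcm6 all lie below -1.5, while the dimmer probes of Tk1, Lig1 and Tipin lie near 0.

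The study treated both sexes, and the fall was present in each. In males 23 of the 44 genes fell in the limma fit, when 4.17% of all genes did, and 0 rose, when 4.01% of all genes did, with 1 higher at an unadjusted p under 0.05. In females 28 fell, when 5.46% of all genes did, and 0 rose, when 4.57% of all genes did, again with 1 higher at an unadjusted p under 0.05. The median effect was -0.97 in males and -1.14 in females. Without replicate 2 of the FA females it was -0.97 in males and -1.03 in females. That array also enters the spread that all groups share in the fit, so the counts in both sexes depend on it. These counts include the 11 genes that passed the detection filter only through the vehicle arrays. With only probes detected on all 8 arrays, 23 genes could be tested. In males 15 of them fell and 1 rose, beside 8.59% of all 5648 such genes lower and 545 higher. In females 13 fell and 1 rose, beside 10.1% lower and 682 higher. All 23 genes that fell in males also fell in females, 5 more passed in females alone (Cdc45, Rfc1, Rpa2, Rpa3 and Chaf1a), and Dut and Gins4 passed only in the mean of both sexes. Passing in females alone does not show a difference between the sexes, which was tested directly.

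No replication gene passed the test of that difference (the male effect minus the female effect), when 0.0212% of all genes did. At an unadjusted p under 0.05, 8 of the 44 genes differed, 5 with a positive and 3 with a negative difference, beside 6.56% of all genes. The smallest p belonged to Mcm2 (unadjusted p = 0.00754, adjusted p = 0.714). FA left Mcm2 below background in 1 of 2 males and in both females, so the size of its difference could not be measured. Ccnd2 leaned the other way, with -1.64 ± 0.16 in males and -1.05 ± 0.16 in females (adjusted p of the difference 0.731). E2f2 had -0.61 ± 0.25 in males and 0.34 ± 0.25 in females, neither past the threshold (adjusted p of the difference 0.731). Its FA females had 7.16 on replicate 1 and 7.78 on replicate 2, the deviating array. The second E2f2 probe, detected on all 8 arrays, had -0.37 in males and -0.02 in females. Without replicate 1 of the FA females, which leaves the deviating array alone in its group, 6 replication genes passed this test in each direction, beside 679 higher and 456 lower of all 9416 genes. In every other leave-one-out fit the count was 0.

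**Figure D4:**
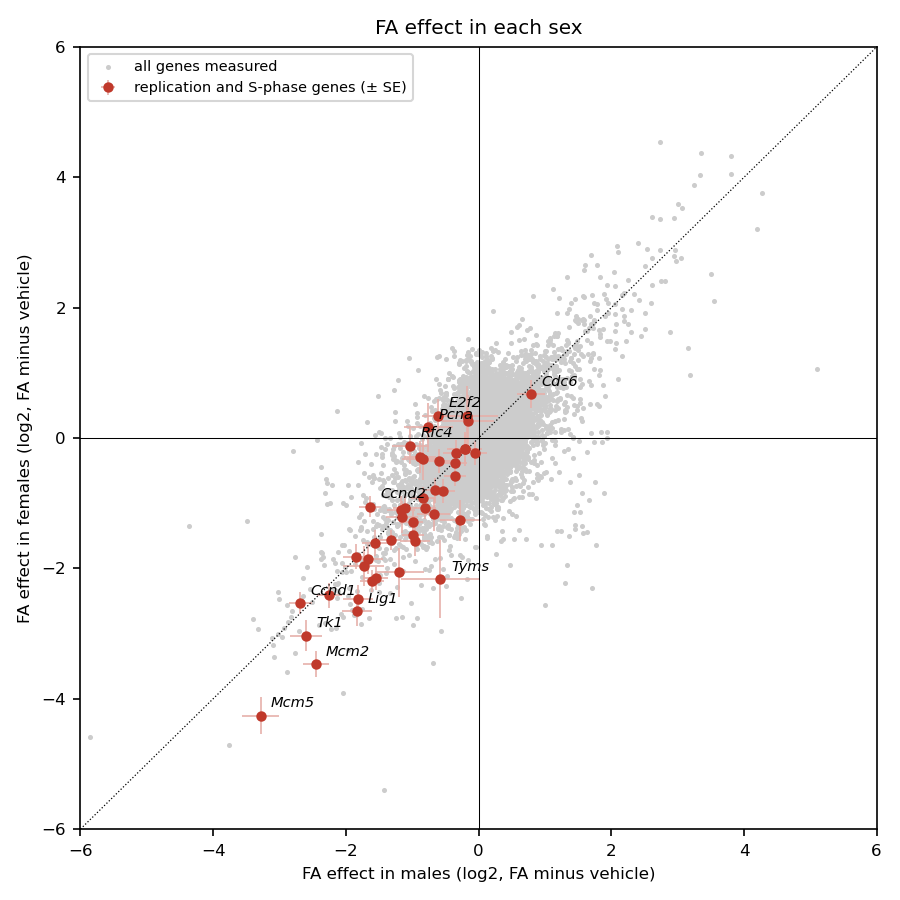
FA effect in males (horizontal, log2, FA minus vehicle) against FA effect in females (vertical) for all 9416 genes (grey) and the 44 replication genes (red, with standard errors); the dotted line marks equal effects. Of the 44 points, 39 lie below 0 in both sexes, and Mcm5 is the lowest at -3.29 in males and -4.26 in females.

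Across genes, the effects in males and females correlated at r = 0.879 for the 44 genes and at r = 0.676 for all genes, given as a description over genes, which are not independent replicates. In vehicle mice, no replication gene passed between the sexes (male minus female), when 0.0743% of all genes did. At an unadjusted p under 0.05, 6 of the 44 were lower in males and none was higher, beside 5.79% of all genes in either direction. The median difference was -0.24 and 41 of 44 were negative, beside a median of -0.02 and 4978 negative differences among all 9416 genes. Markers of other tissue layers moved with sex in the same mice: all 8 dermal fibroblast markers were higher in vehicle males (median difference 1.51, 7 at an unadjusted p under 0.05), as were all 7 skeletal muscle markers (median 1.21, 2 at an unadjusted p under 0.05). None of these markers passed after adjustment, and their part in the sex difference was not tested. Among the 44 genes the largest difference was that of Mcm2, -0.80 (adjusted p = 0.518), with 7.29 and 7.48 in vehicle males and 8.13 and 8.24 in vehicle females.

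Genes of the same and neighbouring steps of the cell cycle were measured beside the list. Of 26 other replication genes measured, 7 fell, when 11.4% of all genes did, and 1 rose, when 9.40% did. Among those that fell, Clspn, Chtf18 and Asf1b were above background on no FA array and Wdhd1 on 1. These genes passed the detection filter only through the vehicle arrays, where they are brighter, so the count partly reflects the filter. Uhrf1, Atad5 and Dtymk fell and were detected on at least 2 FA arrays. Their median effect was -0.33. Uhrf1, which maintains DNA methylation at the fork, fell by 4.24 ± 0.30 (adjusted p = 0.000181), with 3 of 4 FA arrays above background. Clspn (claspin), the fork checkpoint adaptor, was not above background on any FA array and was at least 3.19-fold lower with FA (adjusted p = 0.000133). Atad5, which unloads the clamp, and Dtymk, the thymidylate kinase, fell by 1.01 ± 0.14 (adjusted p = 0.00320) and 0.83 ± 0.11 (adjusted p = 0.00292). The gene that rose was Cdc7, the kinase that activates loaded helicases, at 0.67 ± 0.14 (adjusted p = 0.0183). Cdc7 is named because it was the only one that rose, after its value was seen.

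Genes of G2 phase and mitosis fell as well. Of 17 measured, 8 passed as lower, when 11.4% of all genes did, and none as higher, when 9.40% did. Among those that passed, Ndc80 was above background on only 1 FA array. Of the 17, 1 (Prc1, 0.50 ± 0.15, adjusted p = 0.0527) had a positive effect, and their median was -0.74. Birc5 (survivin), Top2a and Cdk1 fell by 1.99 ± 0.25 (adjusted p = 0.00179), 1.79 ± 0.31 (adjusted p = 0.00729) and 1.61 ± 0.20 (adjusted p = 0.00203). Other G1/S regulators had a median effect of 0.02. Of 15 measured, 2 passed as lower and 1 as higher, about as many as the 11.4% and 9.40% of all genes would give. Tfdp1, the E2F partner, and Cdk2 fell by 0.50 ± 0.13 (adjusted p = 0.0344) and 0.42 ± 0.11 (adjusted p = 0.0359). Cdkn1a, which encodes the kinase inhibitor p21, rose by 0.48 ± 0.12 (adjusted p = 0.0285). None of these lists was tested as a set.

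**Figure D5:**
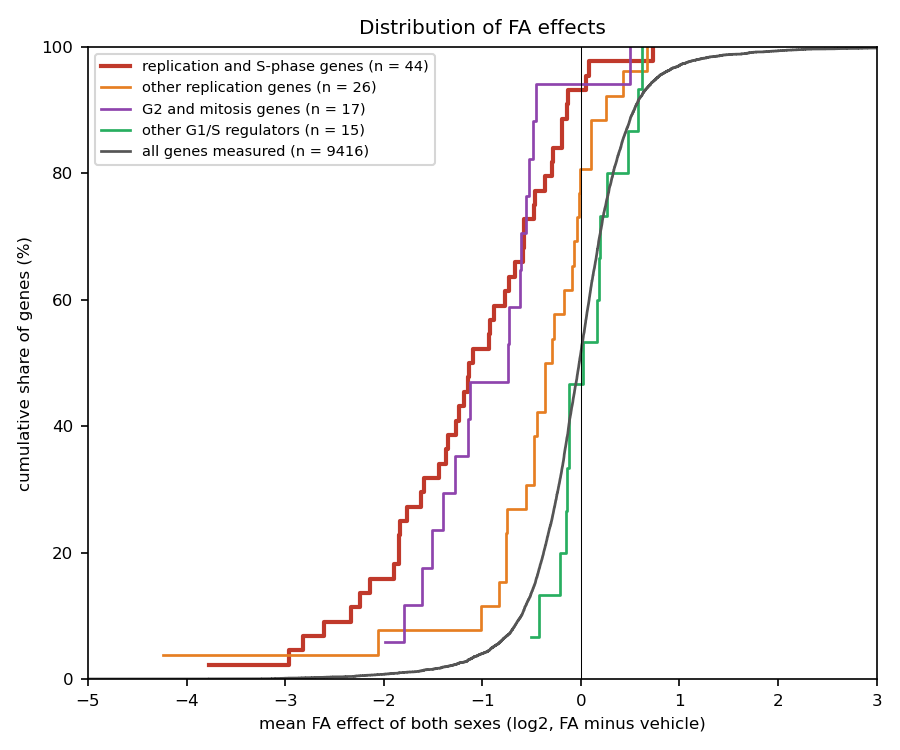
Cumulative share of genes (%) by mean FA effect of both sexes (log2, FA minus vehicle) for the 44 replication genes, 3 further lists and all 9416 genes; a curve farther left means more negative effects. The medians are -1.11 for the replication genes, -0.74 for G2 and mitosis genes, -0.33 for other replication genes, 0.02 for other G1/S regulators and -0.02 for all genes.

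Markers of several other cell types moved with FA too. Of all genes measured, 11.4% passed as lower and 9.40% as higher. All 6 measured markers of Langerhans and dendritic cells fell, and their summed normalized signal was 2170 to 2410 in FA females and 1340 to 2450 in FA males, against 10500 to 10800 in vehicle females and 9480 to 11500 in vehicle males. Of 7 measured markers of dendritic epidermal T cells, 6 fell, with summed signals of 1050 to 1100 in FA females and 785 to 822 in FA males, against 2090 to 2100 in vehicle females and 2340 to 2580 in vehicle males. Dermal fibroblast markers summed to 496 to 977 in FA females and 964 to 1770 in FA males, against 1310 to 1530 in vehicle females and 3470 to 5130 in vehicle males, with 3 of 8 lower. Of 5 markers of the follicle bulge and upper follicle 3 fell, with sums of 9130 to 9320 in FA females and 10100 to 10200 in FA males, against 13600 to 14400 in vehicle females and 23200 to 23300 in vehicle males.

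Markers of basal keratinocytes, the dividing layer, moved in both directions. Of 7 basal keratinocyte markers, Krt5 and Krt14 fell and Krt15 and Itga6 rose, and the sums were 72800 to 74700 in FA females and 68700 to 75600 in FA males, against 80900 to 86400 in vehicle females and 81200 to 83700 in vehicle males. Of 7 measured suprabasal keratinocyte markers, Krt1 fell by 3.00 ± 0.15 and Ivl rose by 0.83 ± 0.16, and the others did not pass. Of 6 sebaceous gland markers 2 fell averaged over both sexes. Their median effect was -1.40 in females, where 2 fell, and 0.08 in males, where none did. None passed as different between the sexes after adjustment. Of 4 neutrophil and macrophage markers 2 fell and 1 rose. Averaged over both sexes, none of 7 skeletal muscle, 3 anagen follicle or 2 melanocyte markers passed, while in males alone 1 skeletal muscle marker and 1 anagen follicle marker rose. Skeletal muscle markers summed to 10000 to 18200 in FA males and 417 to 952 in FA females, against 5800 to 6210 in vehicle males and 1450 to 3550 in vehicle females. All 7 had a more positive FA effect in males at an unadjusted p under 0.05, and none passed as different between the sexes after adjustment. Anagen follicle markers summed to 126 to 248 in FA males and 67.6 to 88.2 in FA females, against 90.6 to 109 in vehicle males and 79.4 to 81.5 in vehicle females. Of the 3, both arrays of a group detected 3 in FA males, 0 in FA females and 1 in each vehicle group. The sums outside FA males therefore rest largely on signals near background. The part of these cell types in the fall of the replication genes was not tested.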

How the data were processed

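The deposited table of unprocessed values gives 25697 probes on every array, each with an intensity and a detection p-value, per the file headers; the intensities are mean bead signals before any correction. The authors' deposited matrix holds log2 values of 13247 probes, all detected on at least 2 arrays. The submitters' processing notes name limma without a version. Running neqc (normexp background correction with offset 16, then quantile normalization) on the intensities gave the deposited log2 values to within 5e-09. The scanner software is not given in the sources used here.

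From the matrix, 12476 probes had 1 gene symbol in the platform annotation, none had several and 771 had none; the brightest probe stood for each of 2304 genes with several, giving 9416 genes. Levels of different probes were not compared. A single model of 4 group means was fitted to all genes with R 4.3.3 and limma 3.58.1 (lmFit, eBayes; 4 residual and 3.35 prior degrees of freedom), checked on simulated data. Its 5 contrasts were the FA effect in females, in males and averaged, the difference of these effects, and the sex difference in vehicle, all two-sided. Errors after ± are standard errors from this fit. Where no FA array was above background, the fold is a lower bound ("at least"), taken against each array's lowest detected signal. Precision is limited by the number of arrays and by how far signals stand above background, since arrays have no read depth.

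Values on every array are given for the 20 members with the largest effect past the threshold, every member that rose, the 3 with the smallest p for a sex difference and the 3 with the smallest effect among those detected on all arrays; other genes are named from each list by smallest p, up to 4. Values shown for further members, Tyms, Cdc7 and Prc1 among them, were chosen after they were seen. The members and lists were chosen with earlier results of these data known. Promoters were read with Python 3.11.15. Alternatives in filtering, normalization, probe choice, model and replicates were tried, 23 in all. Genes with no probe in the matrix could not be followed in the unprocessed table, since the annotation used names matrix probes only.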

Additional observations from a re-analysis of the deposited data

Results flagged for a closer look

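In 9 of the 88 sets of 4 arrays (44 genes, FA and vehicle), 1 array lay far from the other 3 relative to their range, where chance gives about 1 in 20, or 4.4. All 9 are sets of FA arrays, and in 7 of them the deviating array is replicate 2 of the FA females. That array was high for Gins3 (6.191, next value 5.041), Prim1 (5.326, next 4.571), Prim2 (6.672, next 5.616) and Ccne1 (6.336, next 4.731), in log2 signal. It was low for Lig1 (5.031, next 5.621), Tyms (4.752, next 6.949) and Dut (4.704, next 4.941). None of these low values, nor the Prim1 value, was above background on that array. In the other sets, FA male replicate 2 was high for Orc2 (4.999, next 4.667) and FA female replicate 1 for Pole (5.198, next 4.748).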

How the results depend on the processing

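Over 23 alternatives, 22 planned and 1 chosen after seeing the data, 21 of the 30 falls averaged over both sexes held in every setting in which the gene could be fitted. The other 9 were Cdc45, Gins4, Dut, Rpa2, Rpa3, Mcm3, Tk1, Tipin and Lig1. The second-brightest probe turned Lig1 to 0.1205 (0.1897 in males, 0.05119 in females), Tipin to 0.0621 (0.1561 in males) and Tk1 in females to 0.1805, and left 0 members higher in place of Cdc6. The cause was not tested. Detection on all 8 arrays leaves 23 members to test and gave 17 lower averaged over sexes, 15 lower and 1 higher in males, and 13 lower and 1 higher in females, beside 17.1%, 8.59% and 10.1% of all genes lower under this filter. Leaving out 1 array gave 25 to 36 lower and 0 to 3 higher averaged over sexes, 15 to 30 and 0 to 3 in females, and 12 to 29 and 0 to 1 in males. In females 15 and 18 fell without vehicle replicates 1 and 2, and in males 14 fell without any of FA replicates 1 and 2 or vehicle replicate 1, and 12 without vehicle replicate 2. The sex difference ranged from 0 to 6 members in each direction, and no member passed between sexes in vehicle. Array weights gave 1 higher in males, and normalizing again without FA female replicate 2 gave 36 lower averaged over sexes, with 1 higher in females and 1 in males. With the replicate block, 30 members were lower and 1 higher, 26 were lower in females and 22 in males. The deviations of same-numbered arrays correlated at -0.0341 to 0.234 between groups, the highest between vehicle females and FA males. Each correlation rests on a single pair of arrays per group, so it cannot show whether same-numbered arrays shared a batch, which was not tested. The number of genes of any kind past the threshold averaged over sexes was 1955, and 1008 to 3585 with 1 array left out. In females it was 944 (216 to 3004) and in males 771 (208 to 1497). The median effect of the members averaged over sexes lay between -0.565, without background correction, and -1.18; it was -0.511 to -1.09 in males and -0.669 to -1.26 in females.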
